A study of Mus musculus with 64 samples.

Results

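Ankrd63, Lbhd2, Trpa1, Cldn22, 6330420H09Rik and Dnah11 are 6 of the 18432 genes in a bulk RNA sequencing table of mouse frontal cortex and hippocampus. They were chosen because their level was among the lowest relative to wild-type (WT) in adult Cyfip2+/R87C knock-in (KI) mice, so the comparisons that chose them are described here without a test. Those comparisons were cortex at postnatal week (PWK) 14 and 28 for Ankrd63, cortex at PWK 28 for Dnah11, hippocampus at PWK 14 and 28 for 6330420H09Rik and Cldn22, hippocampus at PWK 14 for Lbhd2 and hippocampus at PWK 28 for Trpa1. All 6 listed symbols matched 1 row each through the GENCODE vM21 annotation.

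The KI mice were heterozygous for a knock-in allele that changes arginine to cysteine in Cyfip2. The controls were their WT littermates, and the strain of all mice was C57BL/6N. Cyfip2 encodes a subunit of the WAVE regulatory complex, which drives actin assembly, and this amino acid change is known from children with early epileptic encephalopathy. Cortex and hippocampus were sampled at PWK 1, 7, 14 and 28, with 4 libraries in each of the 16 groups of region, week and genotype. Mice of both sexes were used in the study, and the labels do not give the sex of each library. The allele is present in every cell from conception, and gene-level counts do not separate the mutant from the WT transcript. Cyfip2 itself was at 39967 to 44053 normalized counts in WT and 28584 to 38683 in KI cortex at PWK 14, and at 34022 to 35279 and 21597 to 30055 at PWK 28, with KI below WT and no overlap. In adult hippocampus its ranges overlapped, at 31064 to 35756 in WT and 20608 to 34409 in KI at PWK 14 and at 26732 to 29266 and 24732 to 29612 at PWK 28.

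The 64 libraries summed to 29226000 to 32601000 normalized counts (to the nearest 1000) after the authors' scaling, and their sequencing depth before it is unknown. The region labels were checked against 2 marker genes. Prox1, a transcription factor of dentate granule cells, was between 2980 and 6272 in hippocampus and between 360 and 679 in cortex, and Cux2, of upper cortical layers, was between 2794 and 6214 in cortex and between 638 and 1375 in hippocampus. KI hippocampus replicate 1 at PWK 14 correlated least with its own group (mean Pearson's r of 0.967 with the other 3 libraries). Some further libraries stood apart. WT cortex replicate 1 at PWK 1 had a summed count of 10 striatal projection neuron markers of 19668, against 5554 to 6063 in the other 3 libraries. The 8 olfactory bulb marker genes, listed after their values were seen (Tbx21, Eomes, Cdhr1, Doc2g, Th, Slc6a3, Scgn and Frmd7), summed to 3558 and 3963 in WT cortex replicates 3 and 4 at PWK 28, against 268 and 233 in replicates 1 and 2.

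The 6 genes have no common function. Ankrd63 encodes a protein built of ankyrin repeats, a fold that binds other proteins. Trpa1 encodes a cation channel that opens to irritants and is best known from sensory neurons. Cldn22 belongs to the claudins, the membrane proteins that seal tight junctions between cells. Dnah11 encodes a heavy chain of the outer dynein arm, the motor of motile cilia, which in brain are carried by ependymal cells. Lbhd2 is named for the LBH domain, and 6330420H09Rik is a long intergenic non-coding RNA.

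In GRCm38 coordinates, Ankrd63 (ENSMUSG00000078137) lies on the minus strand of chromosome 2 at 118699103 to 118703963, and Trpa1 (ENSMUSG00000032769) on the minus strand of chromosome 1 at 14872648 to 14918862. 6330420H09Rik (ENSMUSG00000109898) lies on the plus strand of chromosome 7 at 135853682 to 135855710 and overlaps the non-coding gene Gm45241 on the other strand by 767 bp. Cldn22 (ENSMUSG00000038064) lies on the plus strand of chromosome 8 at 47824482 to 47825476. All 995 exonic bases of Cldn22 also lie in exons of Wwc2 on the other strand. Lbhd2 (ENSMUSG00000087075) lies on the plus strand of chromosome 12 at 111406809 to 111412090, and Dnah11 (ENSMUSG00000018581) on the minus strand of the same chromosome at 117877982 to 118199043. Of the 14458 exonic bases of Dnah11, 642 are also exonic in Cdca7l on the other strand. The strand setting of the counting is not given in the sources used here, so reads of Cldn22 and Wwc2, and those from the shared end of Dnah11 and Cdca7l, could have been split between the partners.

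RefSeq's promoter table (GRCm38.p6) held 5 of the 6 genes, all except Trpa1. The 250 bases before the annotated start are shown for the gene that was lower in both regions (Ankrd63), the gene that moved in opposite directions in the 2 regions (Cldn22) and the gene whose high cortex values were in a few libraries (Lbhd2). Capitals mark matches, on either strand, to the E-box CANNTG or the TATA box TATAAA.
Ankrd63, chr2:118703964-118704213, minus strand: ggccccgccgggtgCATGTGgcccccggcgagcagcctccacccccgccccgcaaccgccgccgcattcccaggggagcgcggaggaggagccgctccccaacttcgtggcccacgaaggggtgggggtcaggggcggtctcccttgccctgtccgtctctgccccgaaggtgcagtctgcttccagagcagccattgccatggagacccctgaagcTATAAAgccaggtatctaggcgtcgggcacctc
Cldn22, chr8:47824232-47824481, plus strand: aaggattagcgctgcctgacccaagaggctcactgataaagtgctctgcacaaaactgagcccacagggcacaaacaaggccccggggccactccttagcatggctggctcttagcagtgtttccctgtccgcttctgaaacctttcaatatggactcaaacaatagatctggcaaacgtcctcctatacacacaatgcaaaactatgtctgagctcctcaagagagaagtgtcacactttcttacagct
Lbhd2, chr12:111406559-111406808, plus strand: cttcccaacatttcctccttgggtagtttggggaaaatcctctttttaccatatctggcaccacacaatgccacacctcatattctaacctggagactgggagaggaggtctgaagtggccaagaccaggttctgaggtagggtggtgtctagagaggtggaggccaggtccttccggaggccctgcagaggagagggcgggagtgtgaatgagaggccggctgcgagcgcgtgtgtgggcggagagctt
The Ankrd63 window held a TATA box beginning 33 bases before the start and an E-box beginning 236 bases before it, and its GC content was 70.0%, against 49.2% for Cldn22, 56.8% for Lbhd2 and a median of 52.0% over 27025 promoters. The windows of 6330420H09Rik and Dnah11 held an E-box each. That of 6330420H09Rik, at chr7:135853869-135854118, precedes the RefSeq start but lies inside the GENCODE gene given above. An E-box was present in 66.0% and a TATA box in 13.0% of all promoter windows of this length. No match to the cAMP response element TGACGTCA, its core TGACG (which the full element contains), the AP-1 site TGANTCA or the EGR site GCGTGGGCG was found in any of the 5 windows, and these letters were in 1.62%, 17.9%, 6.87% and 0.54% of all windows.

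In WT mice the 6 genes followed separate paths over region and age. Ankrd63 was low in the first week and high afterwards in both regions, Cldn22 and 6330420H09Rik were hippocampal genes that rose after the first week, and Trpa1 was a gene of the PWK 1 cortex that later remained only at a low level in hippocampus. Dnah11 was higher in hippocampus than in cortex in the first 7 weeks, and Lbhd2 was low in most libraries. Tests among WT libraries used PWK 1 and 7 only, because the WT libraries of PWK 14 and 28 took part in choosing the genes.

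Ankrd63 in WT cortex at PWK 1 was at 618, 105, 170 and 126 normalized counts, and at PWK 7 at 722, 587, 718 and 626. Replicate 1 of PWK 1 was the library with raised striatal markers, and it alone overlapped the PWK 7 range. It rose by 1.77 on the log2 scale (SE 0.42; limma on log2(value + 1), Benjamini-Hochberg adjusted p = 0.00293), and by 2.33 without that library. In WT hippocampus the level went from 157, 89.6, 146 and 110 at PWK 1 to 559, 620, 601 and 562 at PWK 7, a rise of 2.25 on the log2 scale (SE 0.16, adjusted p = 2.62e-07). Of all genes tested between these weeks, 65.3% were called in cortex and 61.3% in hippocampus, so a call here is common. In order of the mean, WT Ankrd63 was highest in cortex at PWK 28 (848 ± 87.4, SD, n = 4), hippocampus at PWK 14 (800 ± 80.6) and cortex at PWK 14 (778 ± 39.6), whose ranges overlapped. Cortex at PWK 7 (663 ± 67.3), hippocampus at PWK 7 (586 ± 29.8) and hippocampus at PWK 28 (559 ± 61.4) followed. These 3 overlapped in that order, cortex at PWK 7 did not overlap cortex at PWK 14, and PWK 1 was lowest in both regions.

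Trpa1 in WT cortex was at 163, 365, 339 and 390 at PWK 1 and at 5.36, 10.8, 4.18 and 4.68 at PWK 7. It fell by 5.45 on the log2 scale (SE 0.32, adjusted p = 3.24e-08), and from PWK 14 on no cortex library exceeded 7.26. Hippocampus started lower, at 39.2, 22.7, 29.0 and 27.4, and was at 24.6, 20.5, 19.3 and 20 at PWK 7, with no call (log2 fold change -0.45, adjusted p = 0.104). The 2 regions differed in this step by 5.0 (SE 0.41, adjusted p = 1.87e-07), where 21.3% of all genes were called. As a result Trpa1 was lower in hippocampus than in cortex at PWK 1 (log2 fold change -3.32, SE 0.27, adjusted p = 3.58e-06) and higher at PWK 7 (1.68, SE 0.33, adjusted p = 0.00152). Between regions, 34.7% of genes were called at PWK 1 and 40.8% at PWK 7.

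6330420H09Rik was close to absent from cortex at every age, at 0 to 5.37 in the 32 cortex libraries. In WT hippocampus it rose from 27.4, 24.2, 29.5 and 27.4 at PWK 1 to 105, 118, 104 and 98.9 at PWK 7 (log2 fold change 1.93, SE 0.15, adjusted p = 5.72e-07), and the ranges of PWK 7, 14 and 28 overlapped. Hippocampus was above cortex by 4.09 at PWK 1 (SE 0.42, adjusted p = 2.17e-05) and by 5.97 at PWK 7 (SE 0.45, adjusted p = 9.66e-07). Cldn22 had the same regional preference at a lower level. It rose in WT hippocampus from 12.3, 7.95, 10.5 and 7.10 to 54.8, 49.8, 17.3 and 41.5 (log2 fold change 1.91, SE 0.36, adjusted p = 0.000725) and in WT cortex from 0 in 3 libraries and 1.74 in replicate 4 to 2.44, 3.76, 11.7 and 6.84 (2.30, SE 0.58, adjusted p = 0.004). Hippocampus exceeded cortex for Cldn22 by 3.00 at PWK 1 (SE 0.46, adjusted p = 0.000382) and 2.60 at PWK 7 (SE 0.47, adjusted p = 0.000901).

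Dnah11 was at 122, 90.1, 92.5 and 61.0 in WT hippocampus and at 30.3, 7.27, 0.923 and 13.4 in WT cortex at PWK 1, a log2 difference of 3.29 between regions (SE 0.66, adjusted p = 0.00253). At PWK 7 the difference was 2.5 (SE 0.30, adjusted p = 4.95e-05), and no step between PWK 1 and 7 was called in either region (adjusted p of 0.313 in cortex and 0.995 in hippocampus). Lbhd2 lay between 1.26 and 25.0 in the 16 WT libraries of these 2 weeks, and none of its comparisons among them was called (adjusted p of 0.115 to 0.913). Per kilobase of exon, the mean WT level in hippocampus at PWK 14 was 165 for Ankrd63, 74.3 for 6330420H09Rik, 57.8 for Cldn22, 50.1 for Lbhd2, 8.71 for Dnah11 and 6.58 for Trpa1.

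**Figure D1:**
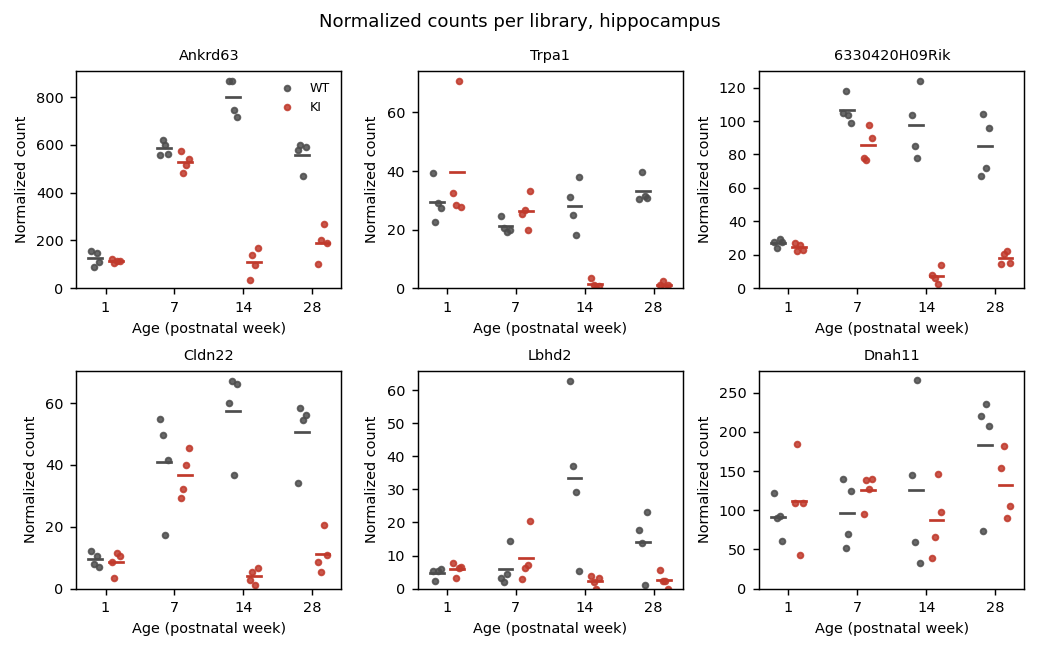
Normalized counts of the 6 genes in each hippocampus library (y axis) against age in postnatal weeks (x axis), with WT in grey and KI in red; horizontal bars are means of 4 libraries. Ankrd63, Trpa1, 6330420H09Rik and Cldn22 show KI below WT with no overlap at PWK 14 and 28 and overlap at PWK 1.

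**Figure D2:**
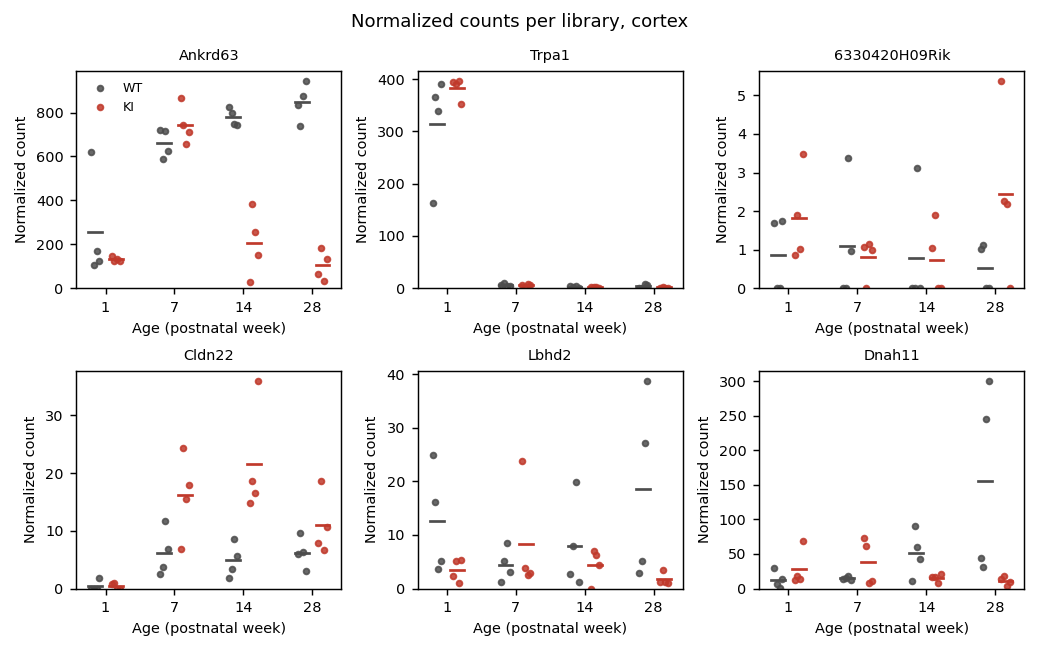
The same plot for cortex, with its own y axes. Ankrd63 shows KI below WT at PWK 14 and 28, Cldn22 shows KI above WT at PWK 14, and the high WT values of Lbhd2 (27.2 and 38.7) and Dnah11 (246 and 300) at PWK 28 are the same 2 libraries.

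At PWK 1 and 7, in libraries that chose none of the genes, no difference between KI and WT mice passed the test for any member. None of the 6 was called in cortex or hippocampus (smallest adjusted p = 0.494, for Cldn22 in cortex at PWK 7), in comparisons where 0.00546% (cortex, PWK 1), 0.00545% (cortex, PWK 7), 0.0109% (hippocampus, PWK 1) and 0.0218% (hippocampus, PWK 7) of genes were called. Cldn22 at PWK 1 and 6330420H09Rik at PWK 7 and 14 did not reach a mean of 1 in the cortex libraries and were not tested there. 6330420H09Rik in KI hippocampus at PWK 7 was at 77.9, 76.9, 97.9 and 90.0 against 105, 118, 104 and 98.9 in WT, which limma did not call (log2 fold change -0.31, SE 0.13, adjusted p = 0.777). These 2 ranges did not overlap, although their nearest values were 97.9 and 98.9. Cldn22 in cortex at PWK 7 leaned the other way, with KI at 6.83, 24.4, 15.5 and 18.0 and WT at 2.44 to 11.7 (log2 fold change 1.31, SE 0.48, adjusted p = 0.494). No member differed between regions in its KI effect at PWK 1 or 7 by limma's interaction test, which called 0 genes (0.0%) at PWK 1 and 1 (0.00543%) at PWK 7, with 668 and 1070 at an unadjusted p under 0.05.

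At PWK 14 in hippocampus, all 4 KI libraries were below all 4 WT libraries for 5 of the 6 genes, the exception being Dnah11. Over all genes tested, 12.2% were separated in this direction, and since this contrast chose 3 of the genes, no more is read from the count. In these bulk samples, fewer cells of a type and less RNA per cell cannot be told apart. 6330420H09Rik was at 104, 85.3, 78.0 and 124 in WT and at 7.96, 6.20, 2.57 and 13.6 in KI mice, or 7.76% of the WT mean. Cldn22 was at 60.1, 67.1, 36.8 and 66.0 in WT and at 2.71, 5.45, 1.29 and 6.73 in KI, or 7.03%. Lbhd2 was at 62.8, 37.0, 29.1 and 5.39 in WT and at 3.68, 1.84, 0 and 3.32 in KI, or 6.59%. KI replicate 3 was the lowest of the 4 for each of these 3 genes, and the lowest WT Lbhd2 value was within 1.5-fold of the highest KI one.

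The other 3 genes were not chosen on hippocampus at PWK 14, although their choice for lower levels in another adult region or week makes a decrease here less than independent. Ankrd63 was at 869, 869, 747 and 715 in WT and at 35.7, 141, 95.2 and 169 in KI, and fell by 3.05 on the log2 scale (SE 0.40, adjusted p = 0.00203). Trpa1 was at 31.2, 24.9, 18.1 and 38.1 in WT and at 3.36, 1.07, 0 and 0.796 in KI, and fell by 3.81 (SE 0.48, adjusted p = 0.00169), or by 2.38 with a pseudocount of 5, still called. Dnah11 was at 146, 59.7, 266 and 32.2 in WT and at 38.9, 66.0, 146 and 98.2 in KI and was not called (log2 fold change -0.25, SE 0.63, adjusted p = 0.819). Thus 2 of 3 tested members were called lower, where 7.95% of all genes were. Without KI replicate 1, the library that correlated least with its group, the log2 fold changes were -2.59 for Ankrd63 and -4.18 for Trpa1, and both were still called.

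Of these 5 genes, all but Lbhd2 were separated in hippocampus at PWK 28, in other mice, where 9.77% of genes were. This contrast chose Trpa1, 6330420H09Rik and Cldn22, so their separation followed from the choice and no more is read from the count. Trpa1 was at 30.6, 39.7, 31.6 and 30.9 in WT and at 1.22, 2.63, 0 and 1.18 in KI, or 3.79% of the WT mean. 6330420H09Rik was at 67.4, 104, 71.7 and 95.7 in WT and at 14.4, 20.2, 22.0 and 15.4 in KI, or 21.2%. Cldn22 was at 34.1, 58.4, 54.5 and 56.1 in WT and at 8.69, 5.51, 20.4 and 10.7 in KI, or 22.3%. For 6330420H09Rik and Cldn22 the KI share of the WT mean was thus larger in the older mice, and for Trpa1 it was 4.65% at PWK 14.

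Among the genes not chosen on this contrast, Ankrd63 fell by 1.62 on the log2 scale (SE 0.24, adjusted p = 0.00123), from 576, 601, 468 and 590 in WT to 102, 203, 271 and 189 in KI. The KI mean was 34.2% of WT at PWK 28 and 13.8% at PWK 14. Ankrd63 was chosen on cortex of the same week, so its test in hippocampus at PWK 28 is less than independent of the choice. Same-numbered KI cortex and hippocampus libraries of that week deviated together in all 4 pairs (r of 0.239 to 0.443), and they may come from the same mice. Lbhd2, at 17.7, 13.9, 1.07 and 23.3 in WT and 5.76, 2.21, 2.14 and 0 in KI, was not called (log2 fold change -1.92, SE 0.80, adjusted p = 0.13); WT replicate 3 lay inside the KI range, and without it the adjusted p was 0.0175. Dnah11 was at 220, 73.0, 235 and 208 in WT and at 153, 181, 89.9 and 105 in KI (-0.39, SE 0.35, adjusted p = 0.496), and without WT replicate 2 the adjusted p was 0.0472. Of the 3 tested members 1 was called lower, beside 6.91% of all genes.

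In adult cortex the picture was led by Ankrd63. It was at 826, 796, 749 and 743 in WT and at 30.2, 384, 257 and 149 in KI mice at PWK 14, or 26.4% of the WT mean, and at 833, 737, 876 and 945 against 65.9, 183, 34.4 and 133 at PWK 28, or 12.3%. The KI mice differed widely among themselves. At PWK 14 replicate 1 was at 3.88% of the WT mean and replicate 2 at 49.4%. In hippocampus the lowest and highest KI libraries were at 4.47% and 21.1% in PWK 14 mice, and at 18.2% and 48.4% in PWK 28 mice. KI cortex replicate 2 at PWK 14 also had the highest summed striatal markers of its comparison (26023, against 8261 to 13660 in the other KI and 7771 to 8987 in the WT libraries), and the part of these markers in its Ankrd63 value was not tested. Of 10 striatal markers, 1 was called higher and 0 lower in KI cortex at PWK 14, with a median log2 fold change of 0.16 beside -0.00 over all genes, and 1 was called in each direction at PWK 28.

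**Figure D3:**
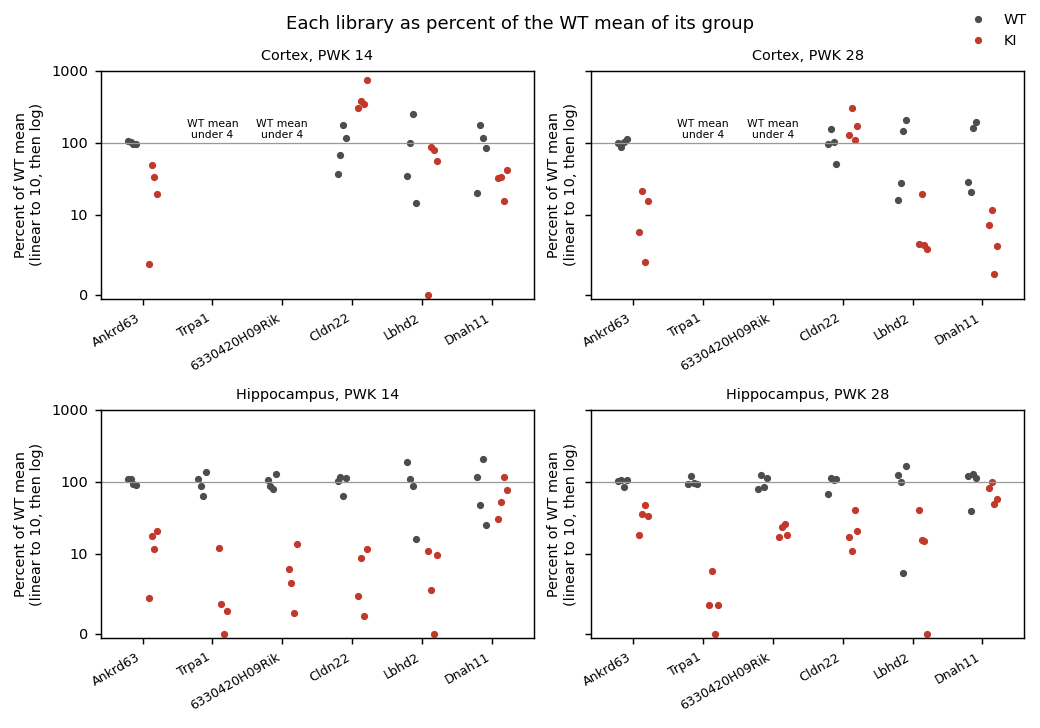
Each library of the 4 adult comparisons as percent of the WT mean of its gene, region and week (y axis, linear up to 10 and logarithmic above), with WT in grey and KI in red; 2 genes with a WT mean under 4 in cortex are left out. In hippocampus at PWK 14, KI libraries of 5 genes lie between 0 and 21.1%, whereas those of Dnah11 reach 116%.

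Cldn22 moved in opposite directions in the 2 regions at PWK 14. In cortex it was at 1.80, 3.33, 8.65 and 5.70 in WT and at 14.8, 18.7, 16.6 and 35.9 in KI, so that all 4 KI libraries lay above all 4 WT libraries, as in 6.64% of genes. It rose by 2.00 on the log2 scale (SE 0.44, adjusted p = 0.0266), the 1 member of 4 tested that was called higher in cortex at PWK 14, where 2.48% of genes were. The call was lost without KI replicate 2 or 4 or WT replicate 1, 2 or 4 (adjusted p of 0.0507 to 0.0745). At PWK 28 the cortex groups overlapped, at 5.91, 9.60, 6.32 and 3.12 in WT and 7.92, 18.6, 6.75 and 10.6 in KI (log2 fold change 0.71, SE 0.42, adjusted p = 0.262). Wwc2, whose exons hold the whole of Cldn22 on the other strand, was at 1384 to 1523 in WT and 1276 to 1448 in KI cortex and at 1485 to 1696 and 1365 to 1694 in hippocampus at PWK 14, and was not called in either (adjusted p of 0.608 and 0.931).

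Among the other claudins, 13 of the 28 listed genes were in the table. None was called lower in hippocampus, and 2 were called higher there at PWK 14 and 3 at PWK 28, beside 15.6% and 15.8% of all genes called in either direction. Cldn3 rose by 2.48 (adjusted p = 0.00904) and 1.36 (adjusted p = 0.0318), and Cldn11, a claudin of myelin, by 0.47 and 0.34. In cortex Cldn5, the claudin of brain endothelium, fell by 0.64 at PWK 14 (adjusted p = 0.00867), and Cldn3 rose by 1.87 at PWK 28 (adjusted p = 0.014). The median log2 fold change of the 13 genes in hippocampus was 0.58 at PWK 14 and 0.19 at PWK 28, beside 0.01 and 0.00 over all genes.

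Trpa1 and 6330420H09Rik were nearly absent from adult cortex in both genotypes, and no difference was detectable at that level. Trpa1 was at 1.36 to 3.78 in WT and 0.84 to 1.99 in KI cortex at PWK 14 (adjusted p = 0.562) and at 0 to 7.26 and 1.20 to 2.56 at PWK 28 (adjusted p = 0.706). Of 23 other genes of the TRP channel family, 1 was called lower and 0 higher in hippocampus at both ages, beside 15.6% and 15.8% of all genes called in either direction. That gene was Trpc5, a receptor-operated channel of neurons, which fell by 1.05 (adjusted p = 0.00406) and 0.79 (adjusted p = 0.000615). In cortex at PWK 28, Trpc5 fell by 1.05 and Trpv6 by 1.11. The family's median log2 fold change was between -0.09 and -0.01 in the 4 adult comparisons.

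**Figure D4:**
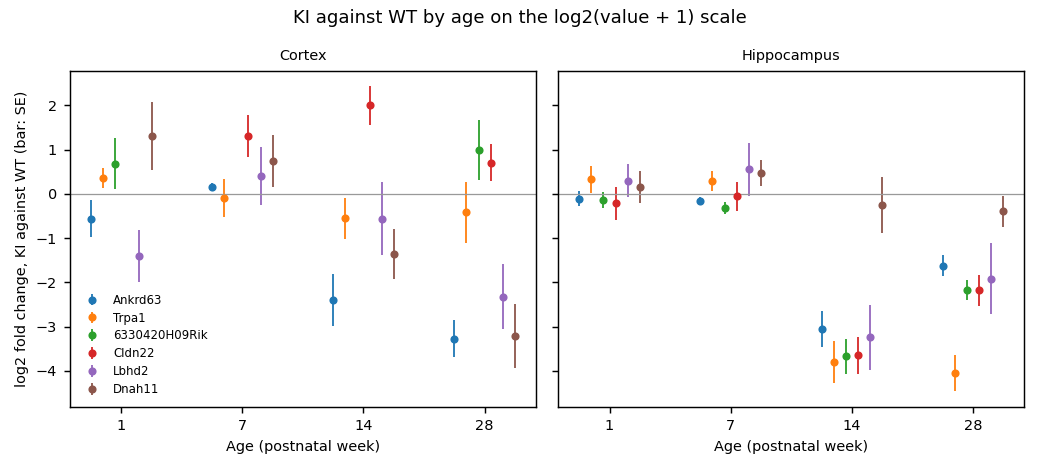
Log2 fold change of KI against WT (y axis, points with SE bars, n = 4 libraries per group) at each postnatal week (x axis) in cortex and hippocampus, on the log2(value + 1) scale; members under a mean of 1 are not drawn. In hippocampus 5 genes lie near 0 at PWK 1 and 7 and between -4.05 and -1.62 at PWK 14 and 28, and in cortex Cldn22 reaches 2.00 at PWK 14.

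Dnah11 and Lbhd2 had their high cortex values in the same few libraries. Dnah11 was at 44.1, 31.8, 246 and 300 in WT and at 13.5, 18.2, 3.98 and 9.51 in KI cortex at PWK 28, or 7.28% of the WT mean, and Lbhd2 at 2.94, 5.10, 27.2 and 38.7 in WT and 1.16, 3.53, 1.15 and 1.06 in KI. WT replicates 3 and 4, the highest for both genes, were the libraries with raised olfactory bulb markers. In them Eomes, a transcription factor of olfactory projection neurons, was at 277 and 296 and Tbx21 at 98.6 and 103, while Eomes was at 2.65 and 1.83 in WT replicates 1 and 2 and between 0 and 13.6 in the KI libraries. The part of these markers in the Dnah11 and Lbhd2 values was not tested.

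Lbhd2 was called lower in KI cortex at PWK 28 with all libraries (log2 fold change -2.32, SE 0.73, adjusted p = 0.0436, 1 of 4 tested members, beside 10% of all genes called lower), although its groups overlapped. Without WT replicates 3 and 4, a choice made after the data were seen, the log2 fold change was -0.93 (SE 0.64) and the adjusted p was 0.396. The call was also lost without WT replicate 3 or 4 alone (adjusted p of 0.124 and 0.123) and without KI replicate 1, 3 or 4. The log2 difference of Dnah11, for which no test is given, was -3.22 with all libraries and -1.81 without these 2, and the remaining WT values of 44.1 and 31.8 were still above the highest KI value of 18.2. In KI cortex at PWK 28, 11.8% of all genes were separated in this direction with all libraries.

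For Lbhd2, the same pattern was present in cortex at PWK 7 and 14. Among the 24 cortex libraries of PWK 7 to 28, 4 had a summed olfactory marker count over 1000 (1168 to 3963), and these were WT replicates 3 and 4 at PWK 28, WT replicate 3 at PWK 14 and KI replicate 1 at PWK 7. Lbhd2 was at 19.9 to 38.7 in these 4 libraries and at 0 to 8.42 in the other 20, with no overlap. Dnah11 was at 60.1 to 300 in the 4 and at 3.98 to 90.5 in the 20, with overlap. The 20 had sums of 233 to 738, and the cut of 1000 was placed on a list made after the values were seen. The highest of these sums was in KI replicate 3 at PWK 14, with Eomes at 65.9 but Lbhd2 at only 6.32. The separation of Lbhd2 thus depends in part on the cut. The high Lbhd2 value of 23.8 in cortex at PWK 7 was thus in a KI mouse, and the sum of these markers was 247 to 395 in the WT libraries of that age. In hippocampus the sum was 543 to 714 in WT and 386 to 602 in KI libraries at PWK 14, where WT Lbhd2 reached 62.8. PWK 1 was left out of this split. There the hippocampal sums were 1186 to 1348 in WT and 1229 to 1328 in KI. Lbhd2 in these libraries was at 2.34 to 6.00 and 3.34 to 7.75. In WT cortex at PWK 1, replicates 1, 2 and 3 had sums of 1261, 1151 and 1002 and Lbhd2 at 25.0, 16.2 and 3.69.

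**Figure D5:**
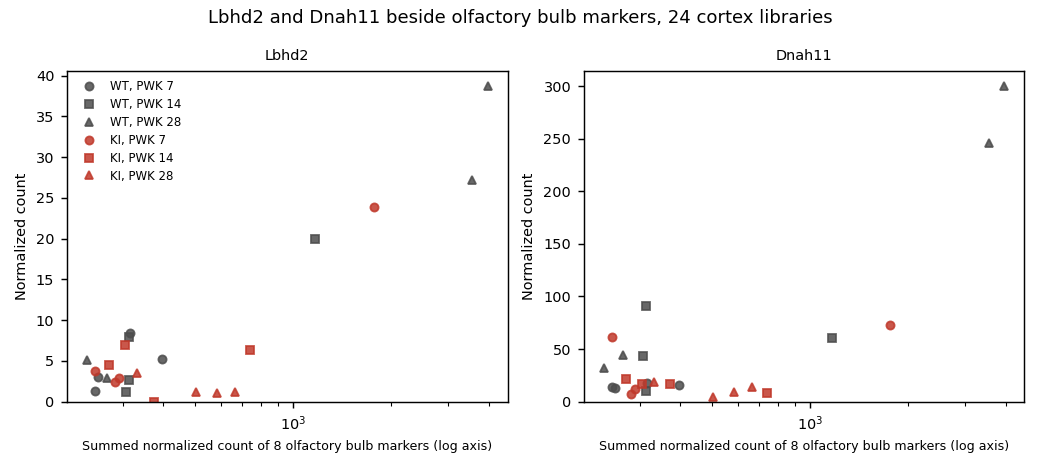
Normalized counts of Lbhd2 and Dnah11 (y axes) against the summed normalized count of 8 olfactory bulb markers (x axis, log scale) in the 24 cortex libraries of PWK 7, 14 and 28; colour gives genotype and shape gives week. The 4 libraries with a sum over 1000 hold Lbhd2 values of 19.9 to 38.7, above the other 20 libraries. The highest sum among the 20 is 738, in a KI library of PWK 14 with Lbhd2 at 6.32.

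At PWK 14 in cortex, neither gene was called. Dnah11 was at 10.3, 90.5, 60.1 and 43.0 in WT and 16.5, 17.1, 7.79 and 21.5 in KI (log2 fold change -1.37, SE 0.56, adjusted p = 0.195), with 0.031 without WT replicate 1, the only WT library inside the KI range. Lbhd2 was at 2.71, 7.92, 19.9 and 1.15 in WT and at 0, 6.97, 6.32 and 4.44 in KI (-0.56, SE 0.82, adjusted p = 0.762). No tested member was called lower there, where 2.7% of genes were, and 7.51% had KI below WT with no overlap. The 2 listed relatives of Lbhd2 with an LBH domain, Lbh and Lbhd1, were called in none of the 4 adult comparisons.

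Of 19 other axonemal dynein chain genes in the table, 0 were called in cortex or hippocampus at PWK 14. In cortex at PWK 28, 2 were higher and 3 lower, where 22.2% of all genes were called. Dnah8 rose by 2.47 (adjusted p = 0.00236) and Dnah1, of the inner dynein arm, by 1.11, while Dnah7c fell by 1.15 (adjusted p = 0.00552). Dnah1 also rose by 0.52 in hippocampus at PWK 28 (adjusted p = 0.00597), the only call of the list there. Of 14 ependymal markers, Dynlrb2 fell by 1.17 and Hydin fell by 0.99 in cortex at PWK 28, and none was called in the other 3 adult comparisons. The summed ependymal markers overlapped between genotypes in cortex at PWK 28, at 1230 to 1450 in WT and 1115 to 1489 in KI, and the WT libraries with high Dnah11 were at 1443 and 1230. The summed 10 choroid plexus markers did not overlap there, at 8288 to 41799 in WT and 4672 to 6948 in KI, with the highest sum in WT replicate 2, which had the lowest WT Dnah11 value.

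Markers of the neurons of the hippocampus were examined beside the hippocampal members. Over all genes, 15.6% were called in hippocampus at PWK 14 (7.95% lower) and 15.8% at PWK 28 (6.91% lower). Of 16 CA pyramidal neuron markers, 6 were called lower and 0 higher in KI hippocampus at PWK 14, and their summed count was 33168 to 35403 in WT and 26440 to 30982 in KI. At PWK 28, 2 were called in each direction, with sums of 29246 to 32148 and 27466 to 32844. Fibcd1, a CA1 marker, fell by 1.66 (adjusted p = 0.0011) and 1.00 (adjusted p = 0.00243). Of 14 dentate granule cell markers, 4 were lower and 1 higher at PWK 14 and 1 lower and 3 higher at PWK 28. Their sums overlapped, at 22761 to 30519 in WT and 18019 to 24534 in KI at PWK 14. Astrocyte markers summed to 157506 to 185886 in WT and 234514 to 361525 in KI at PWK 14, with the highest sum in KI replicate 1, and 2 of 10 were called higher (5 at PWK 28). Summed striatal markers were also higher in KI hippocampus at PWK 14, at 9799 to 11942 against 5131 to 6366. Penk, 1 of these markers, averaged 4509 in KI and 509 in WT. Of the 10 striatal markers, 3 were called higher and 0 lower. The part of these markers in the differences of Ankrd63, Lbhd2, Trpa1, Cldn22 and 6330420H09Rik was not tested.

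Over the 64 libraries, the genes with the most similar profile were sought among 14080 genes with a mean of at least 50, by Pearson's r on log2(value + 1). Region, age and genotype are shared by all these points, so the values are descriptions. 6330420H09Rik was most like Rtl3 (r = 0.94), Fibcd1 (0.93) and Tnxb (0.93). Rtl3 was at 160 in WT and 20.7 in KI hippocampus at PWK 14 on average and was the next gene after the members in the ranking of decreases there. Ankrd63 was most like Trerf1 (0.90), Sec14l1 (0.84) and Gid4 (0.82), and Trpa1 like Cpne8 (0.93), Synm (0.90) and Kcnq3 (0.89). Cldn22 was most like Ppp3ca (0.82), Rogdi (0.81) and Slc27a2 (0.81). Dnah11 was most like Iqub (0.80), Hydin (0.80) and Ccdc114 (0.79), genes known from motile cilia and sperm, and Lbhd2 had no close match (highest r = 0.60, for Dlx6os1). Between members, r was highest for Cldn22 and 6330420H09Rik (0.66) and lowest for Trpa1 and Cldn22 (-0.25).

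Within 100 kb of the 6 genes, 17 further genes were in the table. Of these, 3 were lower and 0 higher in cortex at PWK 14, 2 were lower and 2 higher in cortex at PWK 28, and 2 and 3 were lower, with 0 higher, in hippocampus at PWK 14 and 28. Over all genes, 5.18%, 22.2%, 15.6% and 15.8% were called in these 4 comparisons. Pak6, a kinase gene that ends 1083 bp from Ankrd63 on the other strand, fell in cortex from 2654 to 2701 in WT to 1344 to 1935 in KI at PWK 14 (log2 fold change -0.73, SE 0.115, adjusted p = 0.00662) and by 1.01 at PWK 28 (adjusted p = 0.000391). In hippocampus, where Ankrd63 also fell, Pak6 overlapped between genotypes at both ages. Inafm2, 41795 bp from Ankrd63, fell by 0.33 in cortex at PWK 28 and by 0.26 and 0.31 in hippocampus.

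Both table genes near Trpa1 were called lower in KI hippocampus at PWK 28, and 1 at PWK 14. Gm37412, an unclassified transcript 79683 bp away on the other strand, was at 26.0 to 31.4 in WT and 3.90 to 14.4 in KI at PWK 14 (log2 fold change -1.99, adjusted p = 0.00904) and at 22.7 to 36.4 and 5.59 to 19.3 at PWK 28 (-1.47, adjusted p = 0.0244). Gm9947, an antisense transcript 95717 bp away, was at 26.3 to 33.2 in WT and 2.18 to 9.44 in KI at PWK 28 (-2.22, adjusted p = 0.0024), and was not called at PWK 14 (-2.07, adjusted p = 0.0821). In cortex at PWK 14, where Trpa1 was nearly absent, Gm37412 fell by 0.97 (adjusted p = 0.0381). Exoc3l4, 4927 bp from Lbhd2, moved against it in cortex at PWK 28, from 10.5 to 17.4 in WT to 35.2 to 81.5 in KI (log2 fold change 1.74, adjusted p = 0.00286). Cdca7l, which shares exonic bases with Dnah11, overlapped between genotypes in all 4 adult comparisons.

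The genes just inside and outside the choice lay close together in places. In hippocampus at PWK 14, called genes with a WT mean of at least 1 CPM and no overlap were ranked by log2 fold change: the first 4 were 6330420H09Rik (-3.67), Cldn22 (-3.65), Lbhd2 (-3.25) and Ankrd63 (-3.05), and Rtl3 followed at -3.02. Trpa1, with the lowest log2 fold change of all genes tested there (-3.81), had a WT mean under 1 CPM and was not ranked. At PWK 28, Trpa1 (-4.05), Cldn22 (-2.18) and 6330420H09Rik (-2.17) preceded Onecut1 (-1.93). In cortex at PWK 28, Ankrd63 (-3.27) and Dnah11 (-3.22) stood beside Cartpt (-3.22) and Nlrp6 (-3.18), and at PWK 14 Ankrd63 (-2.40) followed Gm10222 and Gm9531 and preceded AC102496.1 (-2.01).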

How the data were processed

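RNA of cortex and hippocampus was sequenced as paired 101-bp reads, per the study's methods. The labels name a TruSeq Stranded mRNA kit and the study's methods a total RNA kit. The authors estimated transcript abundance with Salmon on GRCm38 and deposited 1 table of counts scaled by DESeq2 size factors, treated here as a signal: the deposited values are coverage estimates scaled between libraries, not whole reads. The submitters' processing notes list Salmon 0.11.2, R 3.6.0 and DESeq2 1.19.11. Of low values, 23.0 to 44.3% per library lay within 0.1 of a whole read, at the scale that fitted each library best. By chance 20% would at a fixed scale, and more at a fitted one. The values were therefore not taken as whole reads, and no count test was run.

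Genes with a mean of at least 1 in the libraries compared were tested with limma 3.58.1 (R 4.3.3, trend option) on log2(value + 1), with Benjamini-Hochberg adjustment over all genes tested and a threshold of 0.05. A fold change on this scale understates the change of low genes. The test was checked on simulated data. Groups came from the labels. Each p-value sets a difference between group means against the spread among the 4 libraries of a group, which limma moderates across genes. Named genes were the 6 members, the 3 genes most like each, neighbours within 100 kb, and up to 3 called genes per list. The members and lists were chosen with earlier results of these data known, and the olfactory bulb list and the setting without its 2 libraries after seeing the values. Other settings were another pseudocount, filter, scaling, sample quality weights, 1 fit of all 64 libraries, 1 library left out, and a replicate block. Same-numbered WT cortex and hippocampus libraries at PWK 1 deviated together in all 4 pairs (r of 0.102 to 0.256 across 12819 genes). So did those of KI at PWK 28 (0.239 to 0.443), whose 2 regions no test compared. The labels do not say whether same-numbered libraries of the 2 regions came from the same mouse.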

Additional observations from a re-analysis of the deposited data

Results flagged for a closer look

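Cldn22 was at 442% of the WT mean in KI cortex and at 7.03% in KI hippocampus at PWK 14, with every KI library above the WT libraries in cortex and every one below them in hippocampus; the difference between the regions was not tested. In WT mice, the step from PWK 1 to 7 differed between hippocampus and cortex for Trpa1 by 5.0 and for 6330420H09Rik by 1.88 on the log2 scale in limma's interaction test (adjusted p of 1.87e-07 and 0.0423). The call of 6330420H09Rik was lost with the replicate block (adjusted p = 0.0539), with sample quality weights, with a pseudocount of 0.5 and in 13 of 16 fits without 1 library.

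In 13 of 96 groups of 4 libraries, 1 library lay far from the other 3 by Dixon's test, where chance gives about 1 in 20 groups. These were Ankrd63 in WT cortex replicate 1 at PWK 1 (618), the library with raised striatal markers, Lbhd2 in KI cortex replicate 1 at PWK 7 (23.8), a library with raised olfactory bulb markers, Dnah11 in WT hippocampus replicate 2 at PWK 28 (73.0) and Cldn22 in WT hippocampus replicate 1 at PWK 28 (34.1). Further ones were Dnah11 in KI cortex replicate 4 at PWK 1 (69.3) and Trpa1 in KI hippocampus replicate 3 at PWK 1 (70.7), in KI cortex replicate 4 at PWK 1 (352) and in WT hippocampus replicate 2 at PWK 28 (39.7). At low levels, 6330420H09Rik stood apart in KI cortex replicate 2 at PWK 7 (0) and WT cortex replicate 3 at PWK 14 (3.12), Cldn22 in WT cortex replicate 4 at PWK 1 (1.74), and Lbhd2 and Trpa1 in KI cortex replicate 2 at PWK 28 (3.53 and 2.56).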

How the results depend on the processing

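Of 1496 repeated member values, 1459 kept their side of the threshold or moved by less than the spread between libraries; 43 of these changed sign, and none of the 43 was called in either fit. Among the rest, 28 lost and 5 gained a call and 4 moved by more than the spread between libraries, all with a pseudocount of 5 (Lbhd2 -2.17, Cldn22 -2.80 and 6330420H09Rik -3.08 in hippocampus at PWK 14, and Trpa1 -2.62 at PWK 28). These counts leave out the setting without the 2 libraries with olfactory markers, chosen after seeing the data. In cortex at PWK 28, the count of called members went from 1 to 0 with a pseudocount of 5, with the replicate block and without the 2 libraries with olfactory markers, and was 0 to 1 with 1 library left out. It was 0 to 1 in cortex at PWK 14 and 1 to 2 in hippocampus at PWK 28 with 1 library left out. For the WT step between regions, 2 called members became 1 (Trpa1) with a pseudocount of 0.5, with sample quality weights and with the replicate block, and 1 to 2 with 1 library left out. With the replicate block the adjusted p of Lbhd2 in cortex at PWK 28 was 0.0585; the block changed no other count. Same-numbered KI and WT libraries deviated together (r over 0.1) in 10 of 32 pairs and in no comparison in all 4. In hippocampus at PWK 28 they did so in 3 of 4 pairs. The labels do not say whether a shared number links a KI and a WT mouse, and these correlations cannot settle it. The call of 6330420H09Rik in that comparison was lost in 13 of 16 fits without 1 library. The cause of these changes was not tested. Over all genes, the number called ranged from 339 to 1952 around 951 in cortex at PWK 14, from 2782 to 6114 around 4081 at PWK 28, from 1456 to 6050 around 2870 in hippocampus at PWK 14 and from 1881 to 3187 around 2911 at PWK 28. Most members are low genes, and differences of a few counts were not detectable.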

Other observations

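Markers of other cell types were called in the adult KI libraries, and part of the numbers is given here. The shares of all genes called were 5.18% (cortex, PWK 14), 22.2% (cortex, PWK 28), 15.6% (hippocampus, PWK 14) and 15.8% (hippocampus, PWK 28). In hippocampus at PWK 28, 6 of 10 microglia markers and 5 of 10 astrocyte markers were called higher and none lower, and at PWK 14, 0 and 2 were. Of 10 oligodendrocyte markers, 2 were higher and 0 lower in hippocampus at PWK 28. At PWK 14 in cortex, 3 of 8 endothelial markers were lower and 0 higher, and 5 of 12 interneuron markers were higher and 2 lower. Of 10 astrocyte markers, 2 were higher and 3 lower in cortex at PWK 28. In cortex at PWK 28, 6 of 12 interneuron markers were higher and 2 lower, 3 of 15 cortical excitatory neuron markers were higher and 5 lower (Lamp5 fell by 1.86), 1 of 10 oligodendrocyte markers was lower, and 1 of 8 endothelial markers was called in each direction. None of these lists holds a member.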
